A study of Mus musculus with 6 samples.

Results

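Pericentral sinusoidal endothelial nuclei are nuclei of the liver's capillary endothelium that carry transcripts of the lobule's centre. They were chosen from single-nucleus RNA counts in 3 steps. First, a nucleus needed at least 500 genes, at least 1000 unique molecular identifiers (UMIs, each one counted RNA molecule), under 5% mitochondrial UMIs and under 0.3% of its UMIs from the hepatocyte genes Apob, Cps1, Abcb11 and Mat1a. Second, it needed at least 5 UMIs of the endothelial genes Stab2, Ptprb, Flt1 and Kdr together, at most 3 of the stellate and Kupffer cell genes Reln and Clec4f, and at most 1 of the large vessel genes Vwf and Mmrn1. Last, a central score (the UMIs of Wnt2, Wnt9b, Kit, Lhx6 and Plppr5) had to be at least 2 and above a portal score (the UMIs of Efnb2, Ntn4, Mecom, Bmper and Adam23). This gave 1099 nuclei of the 9151 that passed the first 2 steps, here called gated sinusoidal endothelial nuclei, and of 27297 barcodes in all. The measured values of these genes chose the nuclei, so their levels in them are description only.

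The nuclei came from the livers of 6 male mice of strain C57BL/6JBomTac, 18 weeks old, fed chow and fasted for 12 hours overnight. There were 3 littermate controls (Plvap Control) and 3 mice labelled Plvap knockout, in which the series' design places the deletion in hepatic stellate cells (HSC-Plvap). The source label of both groups carries Plvaptm1.1Salm-Tg(Lrat-cre)1Rshw, and the labels do not say whether the controls carried the Cre transgene. Lrat regulation drives Cre in stellate cells, so no deletion was designed for the endothelium described here, and the question is how sinusoidal endothelium near the central vein compared between the groups.

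Blood crosses the liver lobule from the portal tracts to the central vein through sinusoids lined by fenestrated endothelium. Endothelial cells at the central end secrete Wnt2, Wnt9b and the Wnt amplifier Rspo3, which sustain beta-catenin activity in the hepatocytes around them and with it the pericentral hepatocyte programme. Endothelium nearer the portal tract is known for Notch ligands, ephrin B2 and scavenger receptors such as Msr1. Plvap forms the diaphragms that span fenestrae and caveolae, and stellate cells sit against the endothelium in the space of Disse.

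Promoters of 3 genes are shown because 2 of them (Wnt2, Wnt9b) are the secreted Wnt ligands of the central score and the other (Cd36, a fatty acid carrier) was lower in them. The sequences are RefSeq's on GRCm38.p6, 5′ to 3′ on the gene's own strand, from 250 bases before to 50 bases after the start that RefSeq's table gives for each gene. Capitals mark GATAA, the core read by GATA factors, on either strand (TTATC is its reverse complement).
Wnt2: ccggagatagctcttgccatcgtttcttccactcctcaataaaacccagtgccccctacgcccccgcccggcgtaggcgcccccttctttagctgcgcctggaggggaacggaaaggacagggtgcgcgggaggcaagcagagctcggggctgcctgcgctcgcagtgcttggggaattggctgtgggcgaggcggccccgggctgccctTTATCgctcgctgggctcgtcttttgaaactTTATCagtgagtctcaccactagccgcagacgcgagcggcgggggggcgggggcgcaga
Wnt9b: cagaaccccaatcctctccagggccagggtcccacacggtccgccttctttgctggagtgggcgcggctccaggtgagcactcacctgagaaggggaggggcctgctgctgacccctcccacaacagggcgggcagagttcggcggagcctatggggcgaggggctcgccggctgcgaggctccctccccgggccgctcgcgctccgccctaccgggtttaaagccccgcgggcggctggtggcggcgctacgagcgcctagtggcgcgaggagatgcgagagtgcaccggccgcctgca
Cd36: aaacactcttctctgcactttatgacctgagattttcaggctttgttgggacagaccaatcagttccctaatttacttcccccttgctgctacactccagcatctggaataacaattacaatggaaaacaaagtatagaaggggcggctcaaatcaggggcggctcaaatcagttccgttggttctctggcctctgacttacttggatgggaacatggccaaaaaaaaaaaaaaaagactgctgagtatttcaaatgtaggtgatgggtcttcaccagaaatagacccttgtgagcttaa
The Wnt2 window, chr6:18030396-18030695 on the minus strand, held 2 matches, 27 CpG dinucleotides and 65.7% G and C. Part of it lies inside the Wnt2 gene of GENCODE (chr6:17988940-18030585), which begins upstream of RefSeq's start, and both matches are in that part. The Wnt9b window, chr11:103749772-103750071 on the minus strand, held 0 matches and 29 CpG. The Cd36 window, chr5:17835847-17836146 on the minus strand, held 0 matches and 3 CpG. It lies inside the Cd36 gene of GENCODE (chr5:17781690-17888801), which begins further upstream. Of 32851 promoters of the same length, 25.4% held GATAA on either strand and 5.27% held it more than once. The motif was chosen with these sequences in view, and a match is a string of letters, not a bound site.

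The 6 libraries held 23153182 to 27199466 UMIs and 3672 to 5402 barcodes, and 1 to 10 barcodes were shared by any 2 libraries. Control 1 and knockout 2 stood apart in hepatocyte content, with 66 and 46 nuclei having at least 1% of UMIs from the 4 hepatocyte genes, against 521 to 878 in the other libraries. The pericentral nuclei numbered 187, 112 and 81 in controls 1 to 3 and 399, 210 and 110 in knockouts 1 to 3. Their median depth was 3520 to 4057 UMIs per mouse, and 0% to 2.14% of them per mouse were called doublets by scrublet and were left in. Knockout 1 alone gave 399 of the 1099.

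The label was checked against sinusoidal and other markers. The 25 genes of sinusoidal endothelial identity and scavenging, such as Stab1, Lyve1 and Clec4g, summed to 15536 to 18821 CPM (UMIs of a gene per 1000000 UMIs of the summed nuclei) in the controls and 18042 to 19274 CPM in the knockouts. The cholangiocyte genes Krt19, Krt7 and Sox9, the natural killer cell gene Ncr1, the lymphatic gene Pdpn and the arterial gene Sema3g were at 0 UMIs in all pericentral nuclei, where a count of 0 allows up to 3 UMIs per gene. The 14 lymphocyte markers summed to 16.6 to 136 CPM in the controls and 23.9 to 199 CPM in the knockouts, and the 8 cholangiocyte markers to 5.55 to 41.0 CPM and 19.4 to 35.9 CPM. All 16 stellate markers had a UMI and summed to 3073 to 3410 CPM in the controls and 3075 to 3596 CPM in the knockouts (3753 to 4773 CPM in the portal-scored nuclei described below). Of these, Lrat was found in 7 and Pdgfrb in 3 of the 1099 nuclei, and Hgf is also listed among the endothelial ligands. Lrat and Pdgfrb are 2 of the 16 and do not stand for the list's summed level. Against the portal-scored nuclei 8 of the list were tested, and 1 (Rbms3) passed higher and 2 lower. Beside that, 3.84% of all tested genes passed higher and 3.59% lower. All 14 Kupffer cell and macrophage markers had a UMI and summed to 1775 to 2035 CPM and 1555 to 2085 CPM, and 15 of 17 large vessel and lymphatic markers to 667 to 770.2 CPM and 607 to 734 CPM. The part of these cell types in the results was not tested. The 22 plasma protein transcripts of hepatocytes, used as markers of free RNA, summed to 2688 to 3544 CPM in the controls and 3204 to 5134 CPM in the knockouts, beside 3144 to 3866 CPM and 3416 to 5325 CPM in the portal-scored nuclei.

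Central and portal scores were not balanced. Kit, the receptor for stem cell factor, gave 55.4% of the central score UMIs over all pericentral nuclei, Wnt2 21.5%, Plppr5 10.0%, the LIM homeobox factor Lhx6 7.25% and Wnt9b 5.82%. Of the 1099 nuclei, 157 qualified through 1 gene alone and 142 of these through Kit alone. A UMI of Wnt2 or Wnt9b was present in 837 nuclei (76.2%). Adam23, a membrane disintegrin without protease activity, gave 64.0% to 79.7% of the portal score UMIs of the gated nuclei per mouse and had a UMI in 90.2% to 96.3% of them. The 7655 nuclei with a portal score of at least 2 and above the central score were therefore most of the sinusoidal endothelium rather than its portal end, and they are called portal-scored here. The other 397 gated nuclei are called the remaining nuclei.

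The score genes had these levels in CPM of all UMIs of the pericentral nuclei. Wnt2 (chr6:17988940-18030585, mm10) had 433, 635 and 491 CPM in controls 1 to 3 and 451, 357 and 429 CPM in knockouts 1 to 3. Wnt9b (chr11:103727364-103749821) had 110.2, 216 and 149.7 CPM in the controls and 108, 93.3 and 131 CPM in the knockouts. Control 2 was the highest mouse for both ligands, and the groups overlapped in both. Kit had 1055, 1195 and 912 CPM and 1293, 1155 and 1037 CPM, Lhx6 132, 262 and 130.3 CPM and 141, 160.4 and 115 CPM. Plppr5, a phospholipid phosphatase-related membrane protein, had 219, 171 and 230.1 CPM and 169, 302 and 195 CPM. The knockout and control ranges overlapped for each of these 3 genes too. In the portal-scored nuclei Wnt2 was not absent, at 121 to 219 CPM, whereas Wnt9b was at 6.52 to 15 CPM.

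The share of pericentral nuclei was highest in knockout 1 and did not separate the groups. Of gated nuclei, the share was 10.4% (95% Wilson interval 9.07 to 11.9) in control 1, 6.58% (5.50 to 7.86) in control 2 and 7.71% (6.25 to 9.49) in control 3. It was 22.3% (20.4 to 24.3) in knockout 1, 15.1% (13.3 to 17.0) in knockout 2 and 7.76% (6.48 to 9.27) in knockout 3. Knockouts 1 and 2 lay above all controls, and knockout 3 lay among them. The means were 8.23% ± 1.96 and 15.0% ± 7.27 (SD, n = 3 each), a difference of 6.81 points (two-sided exact permutation test, p = 0.2, smallest possible p = 0.1), and 3.17 points without knockout 1. Intervals cover counting error only, and shares of nuclei also depend on their isolation. With Adam23 left out of the portal score, an alternative chosen after seeing the data, the shares were 34.8%, 38.9% and 37.6% in the controls and 45.9%, 36.5% and 36.0% in the knockouts, a difference of 2.39 points (exact permutation test, p = 0.7).

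**Figure D1:**
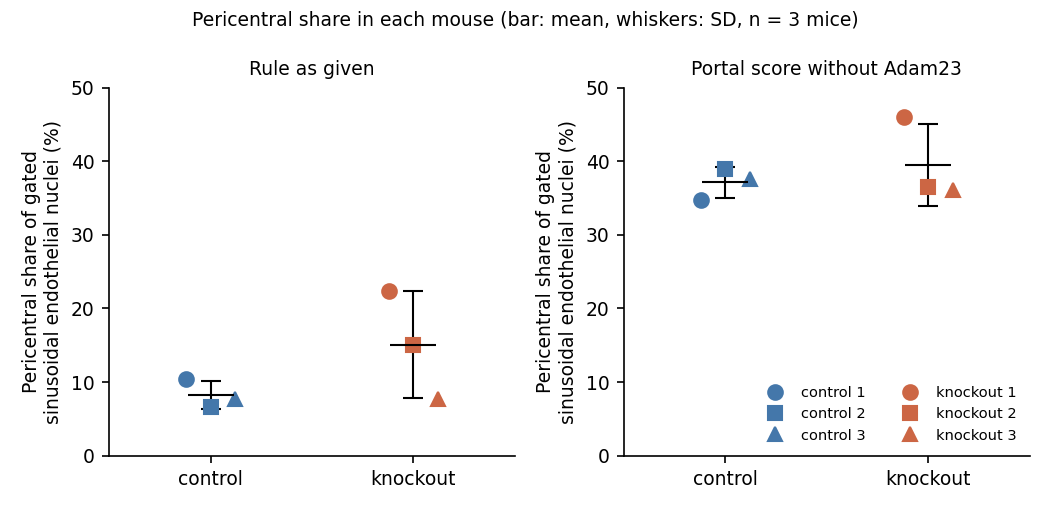
Share of pericentral nuclei among gated sinusoidal endothelial nuclei (y axis, %) in each mouse (points), with the mean (bar) and SD (whiskers) of 3 control and 3 knockout mice, under the rule as given (left) and with Adam23 left out of the portal score (right). Knockouts 1 and 2 stand at 22.3% and 15.1% on the left, above the controls at 6.58% to 10.4%, and on the right knockouts 2 and 3 stand among the controls.

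The score genes were tested between the groups over all gated nuclei, where the score does not choose the nuclei. Of 13518 genes tested there with edgeR's quasi-likelihood test, 0 passed an adjusted p of 0.05 (a background of 0%), 559 (4.14%) had an unadjusted p under it, and DESeq2 called 24. None of the 10 score genes passed. Adam23 was at 2869, 4232 and 3543 CPM in controls 1 to 3 and 1793, 2120.4 and 3223 CPM in knockouts 1 to 3 (knockout minus control log2 difference -0.58, adjusted p = 0.999, unadjusted p = 0.0398). Knockouts 1 and 2, the mice with the largest pericentral shares under the rule as given, had the lowest Adam23 levels. Adam23 is part of the portal score, so its level and the share are tied by the rule itself. Wnt2 was at 172, 255 and 191 CPM in controls 1 to 3 and 213, 156 and 156 CPM in knockouts 1 to 3 (log2 difference -0.24, adjusted p = 0.999). Kit was at 395, 449 and 355 CPM in controls 1 to 3 and 590, 418 and 387 CPM in knockouts 1 to 3 (log2 difference 0.22, adjusted p = 0.999). Knockout 1 had the highest Kit level of the 6 mice, and the groups overlapped in all 3 genes.

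Genes that the rule did not use were then compared between the pericentral and the portal-scored nuclei of the same 6 mice, summed per mouse, with the mouse as a block. The portal-scored nuclei had a median depth of 3184 to 3982 UMIs per mouse. Of 11601 genes tested, 863 passed (7.44%), 446 higher (3.84%) and 417 lower (3.59%) in the pericentral nuclei. The values are CPM on TMM-scaled totals, and differences are log2, pericentral minus portal-scored, with the adjusted p of edgeR's quasi-likelihood test.

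Rspo3 (chr10:29452416-29535867), the R-spondin that keeps Wnt receptors on the cell surface by clearing their ubiquitin ligases, was higher in the pericentral nuclei of each mouse. It was at 911, 1419 and 626 CPM in controls 1 to 3 and 559, 1023 and 1152 CPM in knockouts 1 to 3, against 8.27 to 57.2 CPM in the portal-scored nuclei. The lowest pericentral value stood far above the highest portal-scored one (log2 difference 5.33, SE 0.199, adjusted p = 2.05e-05). In the 3 controls alone the difference was 5.34 and did not pass (adjusted p = 0.0763). A UMI of Rspo3 was found in 17.5% to 41.1% of the pericentral nuclei per mouse, in 1.61% to 3.82% of the portal-scored nuclei and in 2.11% to 3.03% of the hepatocyte-rich nuclei, which were deeper (median 10385 to 11972.5 UMIs). With nuclei thinned to 2000 UMIs, and those under 2000 UMIs left out, the shares were 16.1% to 39.2%, 1.34% to 2.61% and 0% to 0.92%. Most pericentral nuclei thus had no Rspo3 UMI. The thinned range in the portal-scored nuclei lay above that in the hepatocyte-rich ones.

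Other Wnt pathway genes moved less. Of the other ligands and secretion genes on the list, Wnt4, Wnt5b, Wnt2b, Porcn and Wls, the carrier that brings Wnts to the cell surface, did not pass (Wls log2 difference 0.05). Of 19 receptors, inhibitors and targets tested, 5 passed higher and 1 lower (median log2 difference 0.09, against 0.00 over all genes). The shares over all tested genes were 3.84% higher and 3.59% lower. The coreceptor Lrp5 was at 310.3, 294 and 289.9 CPM in controls 1 to 3 and 294, 303 and 288 CPM in knockouts 1 to 3, against 179 to 206 CPM (log2 difference 0.64, adjusted p = 8.18e-11). Its pericentral values were all above its portal-scored values. The negative feedback gene Nkd1 (log2 difference 0.52, adjusted p = 0.000502) and the secreted Dickkopf family member Dkk3 (log2 difference 0.62, adjusted p = 3.87e-05) were also higher, and Apc, a scaffold of the complex that destroys beta-catenin, was lower (log2 difference -0.32, adjusted p = 4.79e-05).

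Of 11 tested genes listed as pericentral endothelial and not used by the rule, 8 passed higher and 1 lower, with a median log2 difference of 1.13. Among all tested genes 3.84% passed higher and 3.59% lower. The list was chosen with earlier results of these data known. Cdh13, the T-cadherin that binds adiponectin and lipoproteins, was at 2615, 3620.1 and 2712 CPM in controls 1 to 3 and 2662, 3393 and 2655 CPM in knockouts 1 to 3, against 650.4 to 1347 CPM (log2 difference 1.79, adjusted p = 1.68e-09). Thbd, the anticoagulant thrombomodulin, was at 30.9, 123 and 17.2 CPM in controls 1 to 3 and 32.4, 31.5 and 44.5 CPM in knockouts 1 to 3, against 10.1 to 37 CPM (log2 difference 1.39, adjusted p = 5.29e-08). Control 2 was far above the other mice in Thbd, and the zones overlapped across mice though not within a mouse. Ptgs1, the constitutive cyclooxygenase, was at 262, 309.8 and 261 CPM in controls 1 to 3 and 221, 225 and 251 CPM in knockouts 1 to 3, against 86.3 to 145 CPM (log2 difference 1.13, adjusted p = 6.84e-16). Fabp4, a fatty acid carrier of capillary endothelium, was at 101, 294 and 141 CPM in controls 1 to 3 and 97.3, 135 and 197 CPM in knockouts 1 to 3, against 36.2 to 109 CPM (log2 difference 1.13, adjusted p = 1.64e-12). Plpp1, a lipid phosphate phosphatase, was higher in each mouse (log2 difference 0.52, adjusted p = 2.3e-13). Selp, the adhesion receptor P-selectin, had 43, 28 and 5.74 CPM in controls 1 to 3 and 18.1, 29.1 and 25.8 CPM in knockouts 1 to 3, against 0.801 to 3.78 CPM (log2 difference 3.51, adjusted p = 8.1e-12), from 70 pericentral nuclei with a UMI. Selp is also on the list of 17 large vessel and lymphatic markers. Of these, 8 were tested here, with 2 passing higher and 2 lower. Cln6, an endoplasmic reticulum protein, was lower (log2 difference -0.87, adjusted p = 0.0439) and lost the call when any mouse other than knockout 1 was left out. Rab3b and Lgals1 did not pass.

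Of 14 tested genes listed as periportal endothelial, 11 passed lower and 1 higher (median log2 difference -0.87). Among all tested genes 3.59% passed lower and 3.84% higher. Msr1, the class A scavenger receptor, was at 95.4, 41.9 and 77.5 CPM in controls 1 to 3 and 96, 81.6 and 91.3 CPM in knockouts 1 to 3, against 439 to 595 CPM (log2 difference -2.70, adjusted p = 4.61e-27). Adgrg6, an adhesion G protein-coupled receptor, was at 0, 4.66 and 2.87 CPM in controls 1 to 3 and 0.624, 4.66 and 2.34 CPM in knockouts 1 to 3, against 34.7 to 133 CPM (log2 difference -5.23, adjusted p = 1.46e-18). Both genes separated the zones in each of the 6 mice. The Notch ligand Dll4 (log2 difference -1.34, adjusted p = 1.06e-06), the TGF-beta binding protein Ltbp4 (log2 difference -1.60, adjusted p = 1.64e-12), the sialomucin Cd34 (log2 difference -2.53, adjusted p = 5.9e-06) and the laminin chain Lama4 (log2 difference -1.65, adjusted p = 1.15e-09) were lower. Efna1, Efnb1, Ly6a, Jag1 and Il1a were lower by 0.56 to 0.95 on the log2 scale. Ephb4, the receptor for ephrin B2, was the listed gene that passed higher (log2 difference 0.44, adjusted p = 0.000209). Its listing as periportal was thus not borne out here. Sox17 and Clu did not pass.

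**Figure D2:**
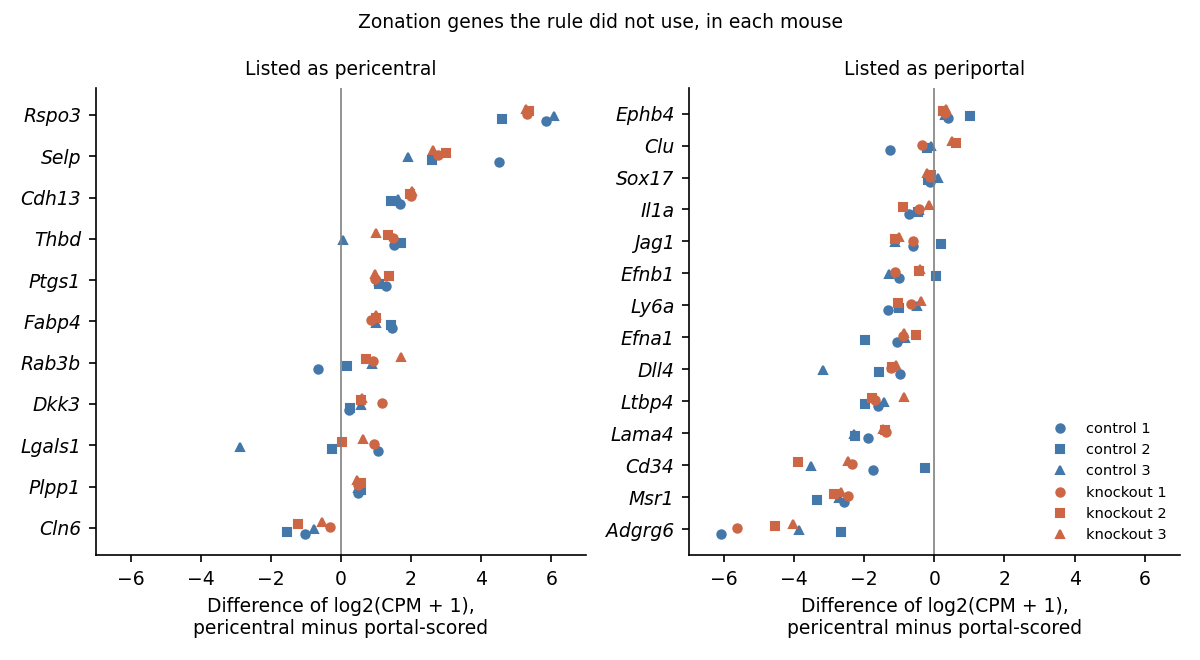
Difference of log2(CPM + 1) between pericentral and portal-scored nuclei (x axis) in each of the 6 mice (points, blue for controls and orange for knockouts) for tested genes listed as pericentral (left) and periportal (right) that the rule did not use. Rspo3, Selp, Cdh13 and Ptgs1 lie to the right of 0 in each mouse, and Adgrg6, Msr1, Lama4 and Ltbp4 to the left.

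Secreted growth factors and guidance signals differed in both directions. Of 22 angiocrine ligands tested, 4 passed higher and 7 lower, beside 3.84% and 3.59% of all tested genes. Vegfc, the lymphatic growth factor, was at 0, 2.33 and 5.74 CPM in controls 1 to 3 and 3.12, 8.16 and 2.34 CPM in knockouts 1 to 3, against 52.9 to 145 CPM (log2 difference -4.70, adjusted p = 1.4e-19). The neuregulin Nrg1 was at 8.06, 6.99 and 5.74 CPM in controls 1 to 3 and 8.73, 0 and 2.34 CPM in knockouts 1 to 3, against 46.4 to 146 CPM (log2 difference -4.18, adjusted p = 7.7e-16). No pericentral value of either ligand reached 10 CPM. Hgf, the hepatocyte growth factor, was 419 ± 175 against 775 ± 195 CPM (SD, n = 6 mice, log2 difference -0.92, adjusted p = 0.00204), and Kitl, the ligand of Kit, was 108 ± 30.9 against 175 ± 54 CPM (log2 difference -0.69, adjusted p = 2.26e-07). Vegfa (log2 difference 0.95, adjusted p = 1.02e-05) and the semaphorin Sema3d (log2 difference 1.51, adjusted p = 7.24e-15) were higher.

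Receptors, Notch genes and transcription factors also differed in both directions. The background for each list was 3.84% of all tested genes passing higher and 3.59% lower. Of 25 VEGF, TIE and BMP receptors and their partners, 3 passed higher and 4 lower, among them Eng, the TGF-beta coreceptor endoglin (0.23), and Bmpr2 (-0.33), Nrp1 (-0.29) and Plxnd1 (-0.35), all as log2 differences. Of 16 Notch genes, 1 passed higher and 4 lower: Lfng, a glycosyltransferase that modifies Notch, was at 51, 67.6 and 63.1 CPM in controls 1 to 3 and 29.9, 31.5 and 65.6 CPM in knockouts 1 to 3, against 11.7 to 24.9 CPM (log2 difference 1.51, adjusted p = 5.35e-10), whereas the target Hes1 (-0.74) and the coactivator Maml2 (-0.25) were lower with Dll4 and Jag1. Of 36 endothelial transcription factors, 4 passed higher and 9 lower. Tox2 was at 0, 0 and 2.87 CPM in controls 1 to 3 and 11.2, 5.83 and 7.02 CPM in knockouts 1 to 3, against 40.9 to 95.9 CPM (log2 difference -3.50, adjusted p = 6.36e-12), Meis1 and the hypoxia factor Epas1 were lower by 0.72 and 0.47 on the log2 scale, and Tshz2 and Tfec were higher by 0.47 and 0.54.

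Fatty acid and scavenger genes of the sinusoid were in part lower. The background for the list counts here was 3.84% of all tested genes passing higher and 3.59% lower. Cd36 was at 73.9, 168 and 126 CPM in controls 1 to 3 and 181, 216 and 222 CPM in knockouts 1 to 3, against 419.9 to 573 CPM (log2 difference -1.63, adjusted p = 3.79e-06). No pericentral value reached the lowest portal-scored one. Of 24 lipid handling genes tested, 1 passed higher (Fabp4) and 4 lower, with the fatty acid carrier Fabp5 (11.9 ± 4.21 against 23.4 ± 5.55 CPM, adjusted p = 0.000663) and Gpihbp1, which anchors lipoprotein lipase (log2 difference -0.32, adjusted p = 0.000344), beside Cd36. Of the 25 identity and scavenging genes, 4 passed higher and 7 lower. The hyaluronan receptor Lyve1 was 75.8 ± 29.7 against 140.3 ± 47.6 CPM (log2 difference -0.92, adjusted p = 4.96e-10) and the lectin Clec4g 999 ± 206 against 1241 ± 275 CPM (log2 difference -0.30, adjusted p = 1.92e-05). Of 27 interferon response genes, 0 passed higher and 7 lower, with Parp14 (-0.41) and Ifi44 (-0.94) among them.

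Plvap itself was zoned. It was at 34.9, 74.5 and 45.9 CPM in controls 1 to 3 and 32.4, 31.5 and 21.1 CPM in knockouts 1 to 3 in the pericentral nuclei, against 7.68 to 18 CPM (log2 difference 1.42, adjusted p = 1.11e-07). The pericentral value was the higher one in each mouse, and a UMI was found in 7.27% to 23.2% of pericentral, 2.78% to 5.56% of portal-scored and 0.813% to 3.6% of hepatocyte-rich nuclei. Thinned to 2000 UMIs, with shallower nuclei left out, the shares were 5.19% to 15.7%, 1.47% to 3.05% and 0% to 1.52%. Of 11 tested genes of caveolae and diaphragms, Plvap was the 1 that passed, beside 7.44% of all tested genes, and Cav1 did not (log2 difference 0.57, adjusted p = 0.175). Against the remaining nuclei, described below, Plvap did not pass. Its difference from the portal-scored nuclei was smaller with Adam23 left out of the portal score, as given below.

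Genes outside the lists were among the largest differences. Higher were Rnf165, a ubiquitin ligase (log2 difference 4.16, adjusted p = 8.49e-17), the mechanosensitive channel Piezo2 (log2 difference 3.65, adjusted p = 5e-19), the teneurin Tenm1 (log2 difference 3.06, adjusted p = 6.79e-12), Tafa2, a secreted chemokine-like protein (log2 difference 2.90, adjusted p = 1.71e-20), Chn2, a GTPase-activating protein for Rac (log2 difference 2.86, adjusted p = 4.08e-19), Gpm6a, Egfem1, Plekhg3 and Adh6b. Piezo2 was at 60.5, 100.2 and 141 CPM in controls 1 to 3 and 35.5, 43.1 and 53.9 CPM in knockouts 1 to 3, against 1.82 to 9.11 CPM. Chn2 was at 121, 172 and 45.9 CPM in controls 1 to 3 and 84.2, 78.1 and 115 CPM in knockouts 1 to 3, against 11.3 to 19.2 CPM. Both were higher in the pericentral nuclei of each mouse. Pcdh9 also passed (log2 difference 3.50, adjusted p = 0.0261), with 10 nuclei giving 68.3% of its UMIs, and lost the call when any mouse other than knockout 1 was left out. Lower were the collagen Col8a1 (log2 difference -5.57, adjusted p = 9.61e-12), Slc45a4 (-4.27), Thsd7a (-3.60), Cfap69 (-2.72), Unc13b (-1.95), Hmcn1 (-1.91) and Galnt15 (-1.81). With Adam23 left out of the portal score 1481 genes passed, 652 of them among the 863, and the log2 difference was 4.11 for Rspo3, 1.87 for Cdh13 and 0.50 for Plvap. It came closer to 0 for Selp (1.41), Chn2 (1.32), Gpm6a (0.77), Fabp4 (0.29), Thbd (0.82), Tox2 (-2.10), Msr1 (-1.77), Lyve1 (-0.26) and Hgf (-0.42), and went further from 0 for Tafa2 (4.30), Col8a1 (-7.33), Thsd7a (-4.89) and Jag1 (-1.67). Pcdh9 (adjusted p = 0.364), Cln6 (0.42), Clec4g (0.0529) and Nrp1 (0.944) lost the call there. Efnb1 lost it without knockout 1 (adjusted p = 0.0852), and Jag1 without knockout 1 (0.0865), knockout 2 (0.115) or knockout 3 (0.0523). Without control 1 and knockout 2 together, Hes1, Nkd1, Efnb1, Jag1, Cln6 and Pcdh9 did not pass. In the 3 controls alone, Rspo3, Fabp5, Cd34, Efnb1, Jag1, Hes1, Maml2, Dkk3, Nkd1, Eng, Plxnd1, Cln6, Parp14 and Ifi44 did not.

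The 397 remaining nuclei, which have low or tied scores, were a closer comparison. Of 5815 genes tested, 168 passed (2.89%), 92 higher (1.58%) and 76 lower (1.31%) in the pericentral nuclei. Rspo3 (log2 difference 2.62, adjusted p = 2.09e-25), Cdh13 (log2 difference 1.07, adjusted p = 1.18e-16), Ptgs1 (0.62), Fabp4 (0.81) and Plpp1 (0.32) were higher and Msr1 (log2 difference -0.81, adjusted p = 0.00128) and Lama4 (log2 difference -0.58, adjusted p = 0.00265) lower, so 5 of 8 tested pericentral and 2 of 8 periportal list genes passed in their zone's direction. Plvap did not pass here (log2 difference 0.33, adjusted p = 0.752). Lama4 lost the call without control 1 (adjusted p = 0.0779), and without control 1 and knockout 2 together Msr1 (0.307), Lama4 (0.181) and Ptgs1 (0.0996) did not pass. Entpd1, an ATP-cleaving ectoenzyme, was higher (log2 difference 1.53, adjusted p = 1.85e-06), and so was the endothelial nitric oxide synthase Nos3 (log2 difference 0.62, adjusted p = 0.0151), which lost the call without knockout 2 (0.095) or knockout 3 (0.0557). The largest differences were the low pericentral values of C7 and Bicc1. C7, a complement component, had 0 UMIs in the pericentral nuclei of all 6 mice, and Bicc1, a cholangiocyte marker, had 5 there. In the gated nuclei 10 nuclei gave 85.6% of the C7 UMIs. The stellate marker Dcn was lower too (log2 difference -2.02, adjusted p = 8.96e-07). The remaining nuclei thus held transcripts of other cell types, whose part in this comparison was not tested.

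The pericentral nuclei differed among themselves. With the central score the level of Rspo3 went from 422 CPM in the 64 nuclei of score 2 to 406, 673 and 1279 CPM in the 211, 489 and 335 nuclei of scores 3 to 4, 5 to 9 and 10 or more. At score 2 the mice ranged from 0 CPM in knockout 1 to 1143 CPM in control 1, which gave 52 of the 76 Rspo3 UMIs, and without control 1 the level was 178 CPM. At 10 or more the mice ranged from 802 to 1798 CPM, and each mouse was higher there than at score 2. Cdh13 went from 1600.4 to 3802 CPM and Msr1 from 128 to 58.6 CPM over the same range of all nuclei. Control 2, with 2 nuclei at score 2, went the other way in both genes, and knockout 1 was at 77.1 and 77.6 CPM of Msr1. The median depth went from 2791.5 to 4871 UMIs, so score and depth moved together. Just outside the rule, 40 nuclei with a central score of 1 and a portal score of 0 had 336 CPM of Rspo3 and 65.4 CPM of Msr1. Another 201 nuclei with tied scores of at least 2 had 158 and 158 CPM.

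Rspo3 was concentrated in a minority of nuclei. Of the 1099 nuclei, 194 had at least 5 Rspo3 UMIs (29, 34 and 12 in controls 1 to 3 and 44, 50 and 25 in knockouts 1 to 3), 123 had 1 to 4 and 782 had none. Between nuclei with at least 5 and those with none, Stab2, the hyaluronan-clearing scavenger receptor used by the gate, was at 2370.2 to 7059 against 7958 to 10873 CPM over the 6 mice. Lyve1 was at 0 to 42.8 against 40.5 to 145 CPM, and Msr1 at 6.87 to 39.9 against 70.6 to 145 CPM. In Stab2 and Msr1 the ranges over mice did not overlap, and in Lyve1 they met only through control 1 and control 3. In the other direction Wnt9b was at 198 to 487 against 22.5 to 92.3 CPM, Selp at 28.5 to 212 against 0 to 5.45 CPM, Cdh13 at 4478 to 6663 against 1678 to 2551 CPM and Chn2 at 128 to 557 against 4.15 to 37.2 CPM. Kit was at 827 to 1326 against 1005 to 1396 CPM, lower at 5 or more in 5 of 6 mice and higher in knockout 1. Of the 25 identity and scavenging genes, 9 were lower and 2 (Pecam1 and Tek) higher at 5 or more in all 6 mice, and the other 14 differed in direction between mice. Their summed level was 13546 to 18838 against 16955 to 20439 CPM, lower in each mouse. Vwf, a large vessel gene that the gate limits to 1 UMI per nucleus, had 20 UMIs in the 194 nuclei and 1 in the 782. These nuclei were grouped after seeing the data and carry no test. They are given no name of their own. Without nuclei of at least 5 Rspo3 UMIs, 664 genes passed against the portal-scored nuclei, 577 of them among the 863, and the log2 difference was 3.12 for Rspo3, 1.44 for Cdh13, 1.02 for Chn2, 0.63 for Fabp4, 1.04 for Plvap and -1.47 for Lama4.

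**Figure D3:**
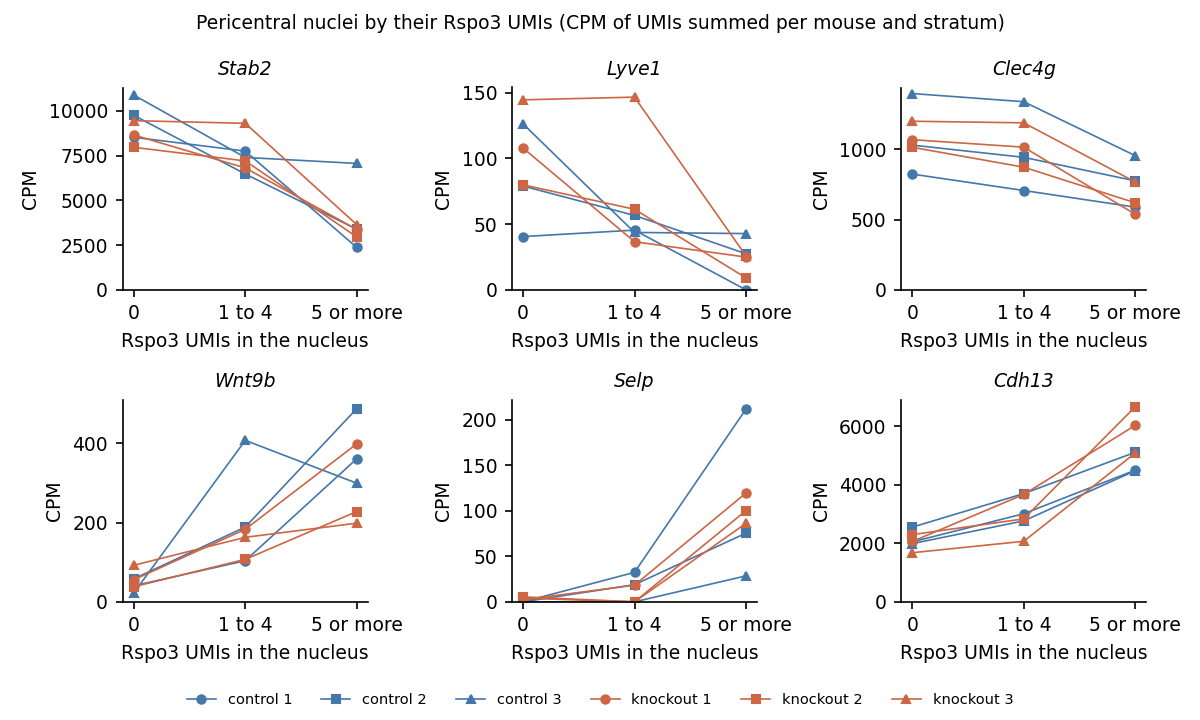
Levels (y axis, CPM of UMIs summed per mouse) of 6 genes in pericentral nuclei with 0, 1 to 4 and 5 or more Rspo3 UMIs (x axis), with 1 line per mouse (blue for controls, orange for knockouts). Selp and Cdh13 are higher in each mouse at 5 or more UMIs than at 0, and Stab2 and Clec4g are lower in each mouse.

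The knockout was compared with the control in the pericentral nuclei, summed per mouse, beginning with the targeted gene. Plvap (chr8:71497765-71511752) was at 35.1, 74.4 and 45.8 CPM in controls 1 to 3 and 32.4, 31.3 and 21.1 CPM in knockouts 1 to 3. The knockouts lay below the controls with no overlap, but the difference did not pass (log2 fold change -0.76, SE 0.315, adjusted p = 0.998, unadjusted p = 0.0291). Of all tested genes, 10.2% had groups that did not overlap, 5.42% with the knockouts higher and 4.77% with them lower. The deletion is designed for stellate cells and the labels do not name the deleted exons, so these endothelial values do not check the labels.

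Of 7448 genes tested, 1 passed (0.0134%), lower in the knockouts, and 326 (4.38%) had an unadjusted p under 0.05. The gene was Csmd1 (chr8:15892537-17535586), which encodes a large membrane protein that restrains complement. It was at 216, 119 and 77.2 CPM in controls 1 to 3 and 11.2, 11.6 and 4.7 CPM in knockouts 1 to 3 (log2 fold change -3.79, SE 0.409, adjusted p = 0.00555 by edgeR's quasi-likelihood test). Each control stood above each knockout. Few nuclei carried it: a UMI was found in 22, 5 and 5 pericentral nuclei of controls 1 to 3 and in 9, 3 and 2 of knockouts 1 to 3, and 10 nuclei gave 58.6% of its UMIs. In the portal-scored nuclei Csmd1 was at 199, 31.1 and 41.8 CPM of all UMIs in the controls and 18.4, 45.1 and 41.8 CPM in the knockouts, so there control 1 stood apart and controls 2 and 3 lay among the knockouts. The call in the pericentral nuclei was lost without knockout 1 (log2 fold change -3.93, adjusted p = 0.15), without knockout 2 (-3.88, 0.0502), without knockout 3 (-3.64, 0.0668), with a central score of at least 3 (-3.72, 0.0721) and with Adam23 left out of the portal score (-2.83, 0.999).

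Other genes with the smallest unadjusted p values separated the groups without passing. Ppp1r9a, an actin-binding scaffold, was at 66.2, 37.2 and 45.8 CPM in controls 1 to 3 and 145, 99.8 and 171 CPM in knockouts 1 to 3 (log2 fold change 1.40, adjusted p = 0.241). Lama4 was at 158, 79 and 97.2 CPM in controls 1 to 3 and 226, 248 and 197 CPM in knockouts 1 to 3 (0.97, adjusted p = 0.562). Each of these was higher in all 3 knockouts. Flrt2 (1.32) and the MHC class I gene H2-K1 (0.73) were higher in the same way. Piezo2 was at 60.8, 100 and 140.1 CPM in controls 1 to 3 and 35.5, 43 and 54 CPM in knockouts 1 to 3 (-1.18, adjusted p = 0.895), and Tenm1 (-1.80), Prkd1 (-0.84) and Tpd52l2 (-1.34) were lower in all 3 knockouts, again without passing. Alb, a hepatocyte transcript, was at 338, 367 and 409 CPM in controls 1 to 3 and 559, 729 and 1017 CPM in knockouts 1 to 3 (1.04, adjusted p = 0.273). Over the main and alternative settings its log2 fold change was 0.79 to 1.24 here and 0.82 to 1.22 over all gated nuclei. Whether Alb passed depended on the setting in both. Of the 22 hepatocyte transcripts abundant as free RNA, 19 were higher in the knockouts (median log2 fold change 0.18) and 0 passed; over all gated nuclei 18 of 22 were higher. The part of free RNA in the other differences was not tested.

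No zonation gene passed the test between the groups in the pericentral nuclei. Rspo3 was at 916, 1416 and 623 CPM in controls 1 to 3 and 559, 1019 and 1155 CPM in knockouts 1 to 3 (log2 fold change -0.12, SE 0.362, adjusted p = 0.998). Cdh13 was at 2629.6, 3612 and 2702 CPM in controls 1 to 3 and 2661, 3381 and 2663 CPM in knockouts 1 to 3 (-0.04, SE 0.168, adjusted p = 0.998). The groups overlapped in both. Of 9 tested pericentral list genes, 0 passed, 1 was higher and 8 were lower (median -0.26). Of 11 periportal list genes, 0 passed and 8 were higher (median 0.23), against a median of -0.01 over all genes. The lists for Wnt ligands, Wnt targets, the Kit pathway, angiocrine ligands, receptors, Notch, caveolae, transcription factors and lipid handling also had 0 genes that passed. Cd36 (0.78, adjusted p = 0.969) and the flow-responsive factor Klf2 (-1.02, adjusted p = 0.969) had the smallest p values among these lists. Of 20 interferon genes, 14 were higher (median 0.21) and 0 passed. Over all gated nuclei 27 of 28 interferon genes were higher in the knockouts (median 0.24, against -0.003 over all genes) and 0 passed. Another list leaned the other way: 13 of 16 immediate early and isolation stress genes were lower there (median -0.295) and 0 passed. In the pericentral nuclei 5 of 5 tested genes of that list were lower (median -0.25) and 0 passed. The cause of these leanings was not tested. Tmtc2, an O-mannosyltransferase gene, was at 625 ± 132 CPM in the controls and 641 ± 21.3 CPM in the knockouts (log2 fold change 0.03).

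The knockout effect in the pericentral nuclei was tested against that in the other gated nuclei by a zone by genotype term. Of 12599 genes, 0 passed (0%), 549 (4.36%) had an unadjusted p under 0.05, and DESeq2 called 0. The smallest adjusted p, 0.086, was shared by Lama4, Cdh13 and the amino acid transporter Slc7a8. Slc7a8 had 6, 2 and 6 UMIs in the pericentral nuclei of controls 1 to 3 and 32, 23 and 24 in knockouts 1 to 3. The difference of log2 fold changes was 0.68 for Lama4 and 0.41 for Cdh13. Over the main and alternative settings that for Cdh13 ran from 0.24 to 0.67. Its smallest adjusted p was 8.62e-09 (edgeR's quasi-likelihood test), so whether Cdh13 passed depended on the setting. Cd200 had 6, 1 and 0 UMIs in the pericentral nuclei of the controls and 0 in those of the 3 knockouts, while the portal-scored nuclei had 26 to 73 per mouse.

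**Figure D4:**
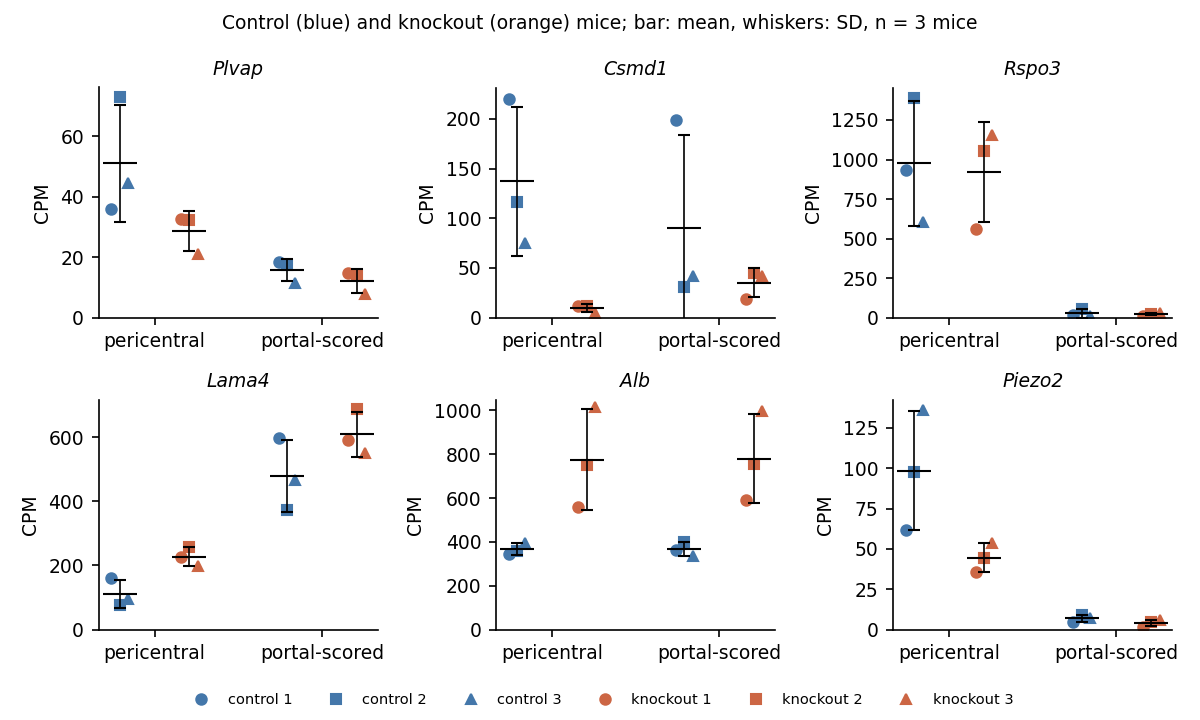
Levels (y axis, CPM of all UMIs) of 6 genes in the pericentral and portal-scored nuclei of each control (blue) and knockout (orange) mouse, with the mean (bar) and SD (whiskers) of 3 mice. Csmd1 is higher in the 3 controls in pericentral nuclei but only in control 1 in portal-scored nuclei, and Alb is higher in the knockouts in both.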

How the data were processed

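The authors deposited raw UMI counts per gene and barcode for 6 libraries of liver nuclei, made per the labels' protocols with version 3.1 of the Chromium 3′ kit. Cell Ranger is given as 7.0.1, with mm10, per the submitters' processing notes and as 7.1.0 per the file headers. The sources used here do not state the use of introns or strand. Each of the 32285 features entered the totals, and no count came from pooled mice.

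Nuclei were chosen as the report's opening states. Doublets were called per library with scrublet in scanpy 1.11.5 (2.25% to 3.72% of nuclei past the depth filter) and left in, with an alternative without them. Counts were summed per mouse, so the mouse was the replicate. Groups came from the genotype labels, and replicate numbers in accession order pair no mice. edgeR 4.0.16 in R 4.3.3 (TMM factors, filterByExpr, robust quasi-likelihood test) was run across all genes that passed the filter, with Benjamini-Hochberg adjustment and a threshold of 0.05. Comparisons between sets of nuclei had the mouse as a block, because both sums came from the same mouse. The 22 genes of the rule and the 13 mitochondrial genes stayed in the totals, and were left out of the tests except that score genes were tested over all gated nuclei. Standard errors were derived from the F statistic. The script was tested on simulated counts. Precision was limited by the 360659 to 1599055 UMIs of pericentral nuclei per mouse. An exact two-sided permutation test was used for shares.

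The nuclei and the 22 gene lists were chosen with earlier results of these data known. Named genes were Plvap, then genes past the threshold with groups that did not overlap and a mean of at least 10 CPM (up to 12 per direction by fold change, or the next by unadjusted p up to 5, given as not passing). Between sets they were those past the threshold with the same sign in 6 mice and at least 20 CPM (12 or 6 largest per direction). Zonation and Wnt ligand list genes that were tested and had at least 5 CPM, and up to 4 of each other list, were also taken. The groups by Rspo3 UMIs, and the genes shown for them, were chosen after their values were seen. Alternatives were DESeq2 1.42.0, no filter, other memberships, no block and leaving out mice. Gene positions are from GENCODE M21 on mm10, which held 32158 of the 32285 features, and promoters from RefSeq.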

Additional observations from a re-analysis of the deposited data

How the results depend on the processing

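Changes of sign were looked for among the named genes of each comparison alone, not among all genes called. These were named genes that passed either as reported or with Adam23 left out of the portal score. Without Adam23 the log2 difference from the portal-scored nuclei changed sign for Tmtc2 (0.18), Gab2 (0.012) and Flt4 (0.075). That from the remaining nuclei changed sign for Dkk3 (0.50) and Il1a (-0.31). The cause was not tested. For the knockout effect in pericentral nuclei, with 1 gene called, DESeq2 called 3, no low-count filter 23, no doublets 2, thinning to 2000 UMIs 2, leaving out control 1 and knockout 2 together 5, and a central score of at least 3 or a portal score without Adam23 0 (leaving out 1 mouse, 0 to 9). In all gated nuclei, with 0 called, DESeq2 called 24, no filter 14 and leaving out control 1 and knockout 2 together 8 (1 mouse, 0 to 7). The term for zone by genotype, with 0 called, gave 7 with no filter, 4 without doublets, 17 without control 1 and knockout 2 and 6 without Adam23 in the score (1 mouse, 0 to 11). Against the portal-scored nuclei, 863 calls became 249 without the replicate block, 415 in the 3 controls alone and 1481 without Adam23 (1 mouse, 688 to 794). Against the remaining nuclei, 168 calls became 105 with DESeq2, 533 with no filter, 47 without the replicate block, 60 in the controls alone, 677 without Adam23 and 103 without nuclei of at least 5 Rspo3 UMIs (1 mouse, 111 to 210). The difference in share lay between 3.17 and 10.4 points without 1 mouse. The alternatives without Adam23 and without Rspo3-rich nuclei were chosen after seeing the data. Depth limits low genes: pericentral nuclei of control 3 summed to 360659 UMIs.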

Other observations

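Sdk1, an adhesion protein of the immunoglobulin family, showed no called difference between pericentral and portal-scored nuclei (log2 difference -0.15, adjusted p = 0.931 by edgeR's quasi-likelihood test). Without nuclei of at least 5 Rspo3 UMIs it was lower in the pericentral nuclei (log2 difference -2.24, adjusted p = 5.98e-07). The pericentral nuclei of controls 1 to 3 held 3, 8 and 0 Sdk1 UMIs and those of knockouts 1 to 3 held 55, 35 and 4, with 10 nuclei giving 59.0% of them. The portal-scored nuclei held 77, 49 and 23 in the controls and 166, 111 and 203 in the knockouts. The knockout effect in the pericentral nuclei did not pass (log2 fold change 2.06, adjusted p = 0.998), and the groups overlapped there.

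Rbms3, an RNA-binding protein also on the stellate marker list, was higher in the pericentral than in the portal-scored nuclei (log2 difference 2.03, adjusted p = 0.00993), and by 0.75 without the nuclei of at least 5 Rspo3 UMIs. The call was lost with Adam23 left out of the portal score (log2 difference 0.49, adjusted p = 0.49) and in the 3 controls alone (2.11, 0.26). Of the 8 stellate markers tested there, Rbms3 passed higher and Prkg1 (-0.42) and Hgf (-0.92) passed lower. Among all tested genes 3.84% passed higher and 3.59% lower. The list's summed level was 3073 to 3596 CPM in the pericentral and 3753 to 4773 CPM in the portal-scored nuclei of the 6 mice, and its part in these differences was not tested.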
